A study of Mus musculus with 6 samples.

Results

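The INK4 and KIP families are small proteins that bind cyclin-dependent kinases (CDKs) and hold back the passage of a cell from G1 into S phase. Their genes Cdkn1b, Cdkn2a, Cdkn2b, Cdkn2c and Cdkn2d were selected by symbol, not by their values, with earlier results of these data known. All 5 were found among the 34245 genes with an expression value. Expression was measured by RNA-seq of total RNA in 3 independent peripheral T-cell lymphomas (PTCL) of Dnmt3b+/- mice. These mice are of the FVB strain and carry a conventional, germline knockout of 1 allele of Dnmt3b, a de novo DNA methyltransferase, in all their cells. The tumors grew in lymph nodes and were taken once the animals were terminally sick, at an age not given in the sources used here. They form the only RNA-seq group, are numbered 1 to 3 by the authors, and no control T cells were analysed here, so a high or low value means a difference between these tumors.

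The INK4 proteins p16Ink4a (Cdkn2a), p15Ink4b (Cdkn2b), p18Ink4c (Cdkn2c) and p19Ink4d (Cdkn2d) bind the monomeric kinases CDK4 and CDK6 and keep D-type cyclins from activating them, whereas p27Kip1 (Cdkn1b) binds assembled cyclin-CDK complexes and is best known for restraining CDK2 with cyclin E or A. When the kinases are free, they phosphorylate RB and its relatives, which release the E2F factors that drive S phase genes. Cdkn2a also encodes Arf from a separate first exon in another reading frame, a protein that binds Mdm2 and thereby stabilizes p53. In T cells p27Kip1 is abundant at rest and degraded after stimulation, and the Cdkn2a and Cdkn2b locus is a recurrent target of loss or silencing in T-cell malignancies.

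Values are FPKM, the fragments on a gene divided by the kilobases of its exons and by the depth of the library, and can be set side by side between genes. Genes with no read carry a small fixed value, that of 0.9 read, and this gave library depths of 30726570, 18969988 and 20770928 reads for tumors 1, 2 and 3, and with them the number of reads behind each gene. The 95% intervals given below are exact Poisson intervals of those reads, which cover counting error only and compare libraries, not conditions. Dnmt3b itself, the targeted gene, had 0.975, 1.55 and 1.25 FPKM in tumors 1, 2 and 3, a value that sums both alleles. Across the 12551 genes above 0.2 FPKM in every tumor, the median log2 ratio was 0.18 for tumor 1 over tumor 2, -0.07 for tumor 3 over tumor 2 and 0.24 for tumor 1 over tumor 3, and log2 ratios of single genes are also given after subtracting this shift.

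Cdkn1b was the most abundant of the inhibitors in every tumor, and Cdkn2a was at the level of a few reads in tumor 2 although it was well expressed in tumors 1 and 3. Of the 5 genes, 4 exceeded 0.2 FPKM in every tumor, Cdkn2a being the exception, where 36.7% of all genes did, and in tumors 1 and 3 alone all 5 did, against 38.1%. The count was 3 at a threshold of 1 FPKM and 5 with the values rescaled to sum to 1000000, where Cdkn2a passes in tumor 2. No share of all genes is given for these settings, and the rescaling multiplies every value. The highest tumor was at least 2 times the lowest for 3 of the 5 genes, Cdkn2a, Cdkn2b and Cdkn2d, against 43.4% of the 14722 genes with a mean above 0.2 FPKM, so a share of this size is not particular to the inhibitors. Without tumor 2 this count was 0, against 24.5% of the genes with a mean above 0.2 FPKM in tumors 1 and 3. Tumor 2 held the lowest value for 4 of the 5 genes, all but Cdkn2c, beside 36.2% of those 14722 genes. The count was 4 under each of 3 other scalings of the libraries, for which no share of all genes is given. The highest value was in tumor 1 for 3 of the 5 genes, Cdkn1b, Cdkn2c and Cdkn2d, near the 49.8% of those 14722 genes. In these bulk samples, fewer cells of a type and less RNA per cell cannot be told apart.

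**Figure D1:**
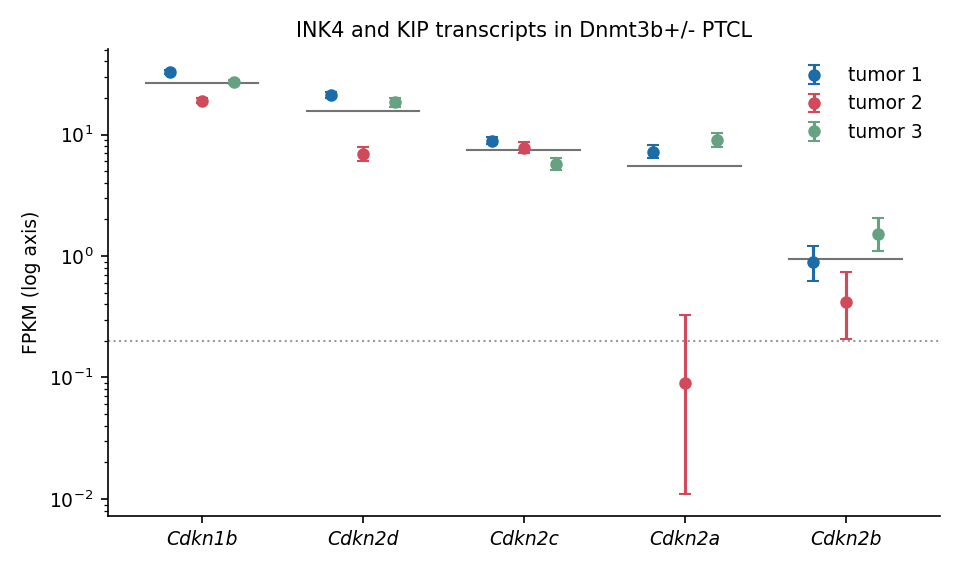
FPKM of the 5 genes in each Dnmt3b+/- PTCL on a log axis, with genes in the order of their means (grey lines), 95% Poisson intervals of the recovered reads as error bars and a dotted line at 0.2 FPKM. Tumor 2 is lowest for Cdkn1b, Cdkn2d, Cdkn2a and Cdkn2b, and its Cdkn2a value of 0.0900 FPKM lies far below the 7.22 and 9.08 FPKM of tumors 1 and 3.

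Cdkn1b (ENSMUSG00000003031), the KIP member, lies on the plus strand of mm10 at chr6:134920401-134925513. Tumor 1 had 32.7 FPKM of it, tumor 2 had 19.0 and tumor 3 had 27.2, with 4576, 1642 and 2572 reads. The mean of 26.3 ± 6.89 FPKM (SD, n = 3) placed it at percentile 96.6 of all genes. Tumor 2 was thus the lowest and tumor 1 the highest, by 1.72-fold (95% interval 1.63 to 1.82). On the log2 scale tumors 1 and 3 stood 0.61 and 0.59 above tumor 2 after the shift of all genes was subtracted, and tumors 1 and 3 differed by 0.02. By its range between tumors Cdkn1b was an ordinary gene, since 8051 of the 14722 genes varied at least as much.

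Cdkn2a (ENSMUSG00000044303) lies on the minus strand at chr4:89274471-89294653. Tumor 1 had 7.22 FPKM (95% interval 6.37 to 8.15), tumor 2 had 0.0900 (0.0109 to 0.325) and tumor 3 had 9.08 (7.92 to 10.4), with 260, 2 and 221 reads. Transcripts of this gene were therefore present in tumors 1 and 3 and close to the limit of detection in tumor 2, where 3 reads, the number that a count of 0 allows, would be 0.135 FPKM. Tumor 1 was 80.3-fold above tumor 2 (95% interval 22.0 to 666) and tumor 3 was 101-fold above it (27.6 to 839). The wide intervals come from the 2 reads of tumor 2, and with 0.1 FPKM added to every value the range between tumors was 48.3-fold. Only 219 of the 14722 genes had a range between tumors as wide as that of Cdkn2a. Between tumors 1 and 3 the ratio was 0.795 (0.662 to 0.956). The mean over the tumors, 5.46 ± 4.74 FPKM (SD, n = 3), describes none of them, and without tumor 2 it was 8.15 FPKM.

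GENCODE M21 gives Cdkn2a 2 coding transcripts of 3 exons each. The Arf transcript starts in the first exon at chr4:89294334-89294653, of 320 bases, and the p16Ink4a transcript in another first exon at chr4:89281986-89282192, of 207 bases. Of the 1172 exonic bases of the gene, 320 belong to the Arf transcript alone and 277 to the p16Ink4a transcript alone. One FPKM value covers both transcripts, so the values of tumors 1 and 3 do not say which was expressed, while the 2 reads of tumor 2 limit their sum.

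Cdkn2b (ENSMUSG00000073802), the neighbor of Cdkn2a on the same strand at chr4:89306289-89311032, is separated from it by 11635 bases. It was the least abundant of the 5 genes, at 0.888 FPKM (95% interval 0.628 to 1.22) for tumor 1, 0.416 (0.208 to 0.745) for tumor 2 and 1.52 (1.10 to 2.04) for tumor 3. The 38, 11 and 44 reads are rounded, since the exons of M21 did not give whole reads for this gene. As for Cdkn2a, tumor 3 was the highest and tumor 2 the lowest, but the distance was far smaller, with a ratio of tumor 3 to tumor 2 of 3.65 (1.86 to 7.84) and of tumor 1 to tumor 2 of 2.13 (1.07 to 4.63). Its mean was 0.942 ± 0.554 FPKM (SD, n = 3), at percentile 66.8 of all genes. Cdkn2b thus remained detectable in the tumor in which Cdkn2a nearly was not, and in tumor 2 alone its FPKM exceeded that of Cdkn2a.

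Promoter sequences of these neighbors are shown because the pair shared its lowest tumor and because CpG sites are the substrate of the enzyme that the mice carry in reduced dose. DNA methylation was not analysed here. The RefSeq promoter table of build GRCm38.p6, with 250 bases before to 50 after each start, held all 5 genes with 7 starts. The sequences of the Arf start (chr4:89294570-89294869), the p16Ink4a start (chr4:89282143-89282442) and the Cdkn2b start (chr4:89310983-89311282) run 5′ to 3′ on the minus strand, with each CG dinucleotide in capitals.
Cdkn2a Arf start: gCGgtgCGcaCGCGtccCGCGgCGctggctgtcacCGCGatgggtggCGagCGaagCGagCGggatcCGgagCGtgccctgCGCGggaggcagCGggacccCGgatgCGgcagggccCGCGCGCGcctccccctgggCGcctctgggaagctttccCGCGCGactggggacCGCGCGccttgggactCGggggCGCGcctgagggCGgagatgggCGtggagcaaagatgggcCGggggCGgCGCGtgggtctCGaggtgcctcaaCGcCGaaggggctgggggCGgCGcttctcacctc
Cdkn2a p16Ink4a start: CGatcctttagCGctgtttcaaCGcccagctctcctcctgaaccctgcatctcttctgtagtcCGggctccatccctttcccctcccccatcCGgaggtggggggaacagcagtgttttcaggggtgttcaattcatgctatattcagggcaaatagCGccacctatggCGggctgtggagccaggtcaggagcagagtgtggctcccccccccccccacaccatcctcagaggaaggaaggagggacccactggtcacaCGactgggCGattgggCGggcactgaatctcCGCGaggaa
Cdkn2b start: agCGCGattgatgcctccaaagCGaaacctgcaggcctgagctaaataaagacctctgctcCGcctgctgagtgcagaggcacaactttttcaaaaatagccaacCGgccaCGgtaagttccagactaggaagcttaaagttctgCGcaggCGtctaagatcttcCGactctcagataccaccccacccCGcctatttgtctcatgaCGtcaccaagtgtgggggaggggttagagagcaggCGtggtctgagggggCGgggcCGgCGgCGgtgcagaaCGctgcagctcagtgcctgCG

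The Arf start held 45 CG dinucleotides in 300 bases, with a GC content of 77.0%, and ranked at percentile 98.1 of 32851 promoters, whose median was 7. The p16Ink4a start, downstream in the direction of transcription, held 12 and the Cdkn2b start 18. The 3 starts of this locus therefore differ widely in CpG content, at percentiles 98.1, 60.4 and 70.3. Cdkn1b held 30, Cdkn2d 22, and the starts of Cdkn2c held 33 and 8. The E2F word TTTCCCGC, searched on both strands, was found in 1 of the 7 promoters, the Arf start, against 1.07% of all promoters, and TTTCGCGC, TTTGGCGC and TTTGCCGC were found in none of the 7. The GC box GGGCGG was found in 6 of the 7, all but the downstream start of Cdkn2c, against 35.7% of all promoters, and CCAAT in 4 of the 7 against 37.4%. TGTTTAC, a FOXO word, was in none of the 7 and in 3.65% of all promoters. A match is a description of these letters and not of binding.

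The genes around the locus did not share the size of the drop of Cdkn2a in tumor 2, although several shared its direction. Within 1000000 bases on either side the values cover 51 genes, the inhibitors included. Of these, 6 were above 0.2 FPKM in every tumor, beside 36.7% of all genes. In 29 of the 51 the values were in inverse proportion to library depth, as in genes without a read, beside 14166 of 34199 genes. Of those 6 genes, 4 were lowest in tumor 2, where 36.2% of the 14722 genes were, namely Cdkn2b, Klhl9, Focad and Hacd4, of which Focad, with 2.68, 2.07 and 2.94 FPKM in tumors 1, 2 and 3, had the order of Cdkn2a. Hacd4 had 0.935, 0.531 and 0.641 FPKM, and Gm26566, highest in tumor 2, had 3.76, 8.43 and 4.27 FPKM. Ifna4, Ifna1, Ifna2 and Ifna5 were above 0.2 FPKM in tumor 2 alone, at 1.22, 0.740, 0.460 and 0.277 FPKM from 13, 8, 9 and 3 reads, and Focad, Hacd4, Gm26566 and these were named after their values were seen. Mtap, which encodes an enzyme of methionine salvage and is the nearest expressed gene on the side of Cdkn2a, at chr4:89137122-89181081, had 14.1, 15.8 and 16.3 FPKM in tumors 1, 2 and 3 and was therefore as abundant in tumor 2 as in the others. Klhl9, an adaptor of a ubiquitin ligase on the far side of Mtap, had 14.9, 11.0 and 13.3 FPKM. Dmrta1, the next gene of the list beyond Cdkn2b and named after its values were seen, was nearly silent in another tumor. It had 0.0388 FPKM from 5 reads in tumor 1 against 6.15 and 7.71 FPKM in tumors 2 and 3. Its range between tumors, 199-fold, exceeded the 101-fold of Cdkn2a, and both rest on few reads in the lowest tumor.

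**Figure D2:**
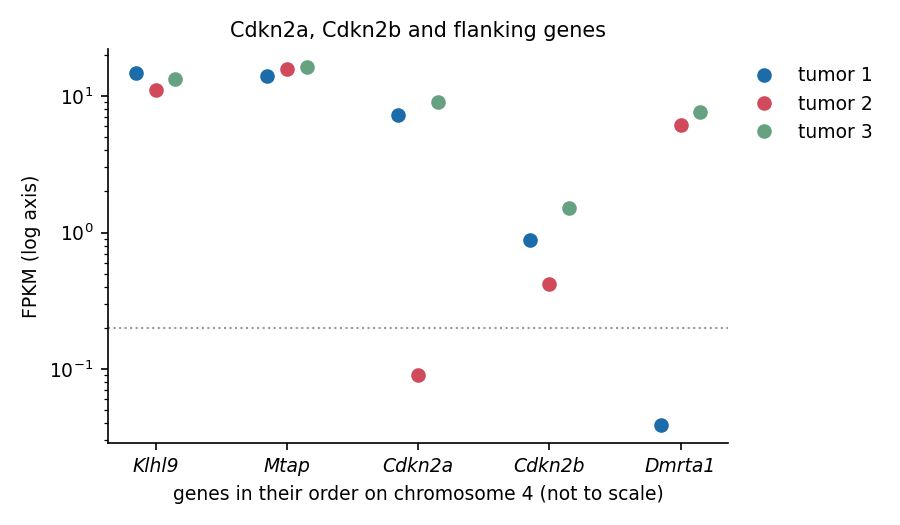
FPKM on a log axis of Cdkn2a, Cdkn2b and the genes of the neighbor list in each tumor, in their order on chromosome 4, with a dotted line at 0.2 FPKM. Cdkn2a drops to 0.0900 FPKM in tumor 2 and Dmrta1 to 0.0388 FPKM in tumor 1, while Mtap stays between 14.1 and 16.3 FPKM.

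Cdkn2c (ENSMUSG00000028551), at chr4:109660876-109667189 on the minus strand, was measured at 8.92 FPKM for tumor 1, 7.79 for tumor 2 and 5.75 for tumor 3, with 736, 397 and 321 reads. It was the only one of the 5 genes that was lowest in tumor 3. The ratio of tumor 1 to tumor 3 was 1.55 (95% interval 1.36 to 1.77) and that of tumor 1 to tumor 2 was 1.14 (1.01 to 1.30), which left 0.02 on the log2 scale after the shift of all genes was subtracted. With a mean of 7.49 ± 1.60 FPKM (SD, n = 3), at percentile 86.9, it varied least of the 5, but without tumor 2 only Cdkn2b, with 1.71-fold, varied more than its 1.55-fold.

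Cdkn2d (ENSMUSG00000096472), at chr9:21288410-21291407 on the minus strand, reached 21.2 FPKM in tumor 1 and 18.4 in tumor 3 but only 6.93 in tumor 2, with 1025, 602 and 207 reads. Tumor 2 stood apart here as well, since tumor 1 was 3.06-fold (95% interval 2.63 to 3.57) and tumor 3 was 2.66-fold (2.26 to 3.13) above it, while tumors 1 and 3 differed by 1.15-fold. The mean was 15.5 ± 7.56 FPKM (SD, n = 3), at percentile 93.6, and 19.8 FPKM without tumor 2.

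By their means the order was Cdkn1b, Cdkn2d, Cdkn2c, Cdkn2a and Cdkn2b. No neighbors in that order were separated by more than their spread, as the ranges of mean ± SD overlapped for each of the 4 neighboring pairs. Cdkn1b came first in every tumor. Tumor 1 had the order of the means, tumor 3 had Cdkn2a above Cdkn2c, and tumor 2 had Cdkn2c above Cdkn2d and Cdkn2b above Cdkn2a.

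The INK4 pool of tumor 2 was smaller and differently composed. The FPKM of the 4 INK4 genes summed to 38.2, 15.2 and 34.8 for tumors 1, 2 and 3. Cdkn2a made up 18.9%, 0.591% and 26.1% of this sum. Cdkn2c made up 23.3%, 51.2% and 16.5%, and Cdkn2d made up 55.5%, 45.5% and 52.96%. Cdkn2d thus led in tumors 1 and 3, while in tumor 2 the intervals of Cdkn2c (7.04 to 8.60 FPKM) and Cdkn2d (6.02 to 7.94 FPKM) overlapped. Cdkn2b never exceeded 4.37% of the sum.

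**Figure D3:**
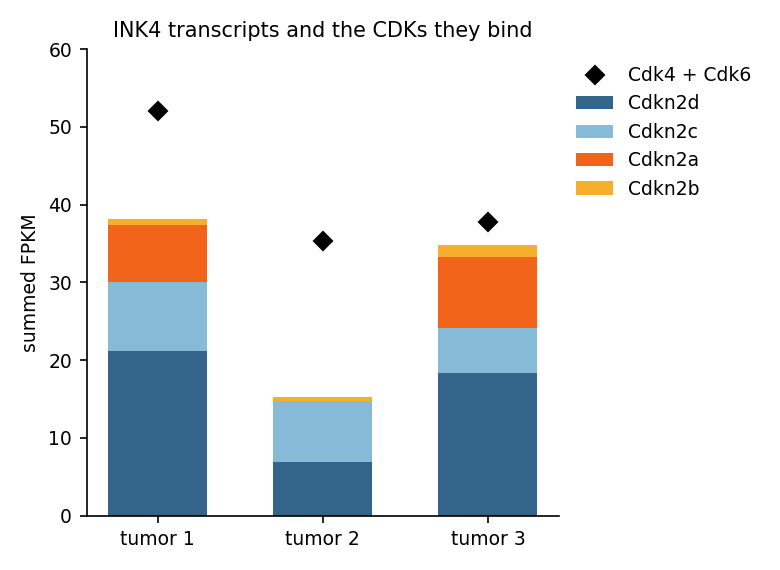
Stacked FPKM of the 4 INK4 genes in each tumor (bars) with the summed FPKM of Cdk4 and Cdk6 (diamonds). The INK4 sum is 38.2, 15.2 and 34.8 FPKM in tumors 1, 2 and 3 and lies below the kinase sum of 52.0, 35.4 and 37.8 FPKM in each of them.

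Among the other KIP genes, Cdkn1a, which encodes p21Cip1 and is induced by p53, had 6.08, 3.04 and 11.3 FPKM in tumors 1, 2 and 3. It was thus also lowest in tumor 2 and highest in tumor 3, as Cdkn2a and Cdkn2b were. Cdkn1c, which encodes p57Kip2 and is imprinted, stayed at or below 0.129 FPKM in every tumor, with 5 reads in tumors 1 and 2 and none in tumor 3.

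The kinases that INK4 proteins bind differed from each other. Cdk4 had 35.0, 28.7 and 33.3 FPKM and varied by 1.22-fold, while Cdk6 had 17.1, 6.66 and 4.47 FPKM and varied by 3.82-fold, with its highest value in tumor 1. Within each tumor, summed INK4 FPKM over summed Cdk4 and Cdk6 FPKM was 0.734, 0.431 and 0.920 in tumors 1, 2 and 3, a mean of 0.695 ± 0.247 (SD, n = 3). Tumor 2 therefore had the fewest INK4 transcripts per kinase transcript, and tumor 3 the most. Leaving Cdkn2a out of the sum, an alternative chosen after the values were seen, gave 0.596, 0.428 and 0.680, so that the order of the tumors was the same and their range narrowed from 2.14-fold to 1.59-fold. Such ratios do not depend on how the libraries are scaled, and they say nothing of protein.

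The D-type cyclins, the activators that compete with INK4 proteins for these kinases, were led by Ccnd2 and Ccnd3. Ccnd2 had 32.4, 25.4 and 52.4 FPKM and Ccnd3 had 18.7, 20.3 and 28.7 FPKM in tumors 1, 2 and 3. Ccnd1, low in lymphoid cells, had 1.89, 1.96 and 0.981 FPKM. Summed D-type cyclin FPKM was 52.9, 47.6 and 82.1, which was 1.02, 1.35 and 2.17 times that of Cdk4 and Cdk6. Tumor 3 thus had the highest ratio to these kinases for the cyclins as for the inhibitors. Its cyclin sum was the highest, while the kinase sum of 52.0, 35.4 and 37.8 FPKM was lowest in tumor 2. The INK4 sum itself was highest in tumor 1.

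For p27Kip1, the transcript was set against those of its main target and its degrader. Cdkn1b FPKM was 4, 3.16 and 6.86 times that of Cdk2 in tumors 1, 2 and 3, and 22.3, 17.9 and 39.4 times that of Skp2, the F-box protein that marks p27Kip1 for degradation. Both ratios were highest in tumor 3, where Cdk2 and Skp2 had their lowest values, 3.96 and 0.691 FPKM, and lowest in tumor 2, where Cdkn1b itself was lowest. They share Cdkn1b as numerator, so their common order is in part built in. Skp2 was named by its place in this ratio.

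**Figure D4:**
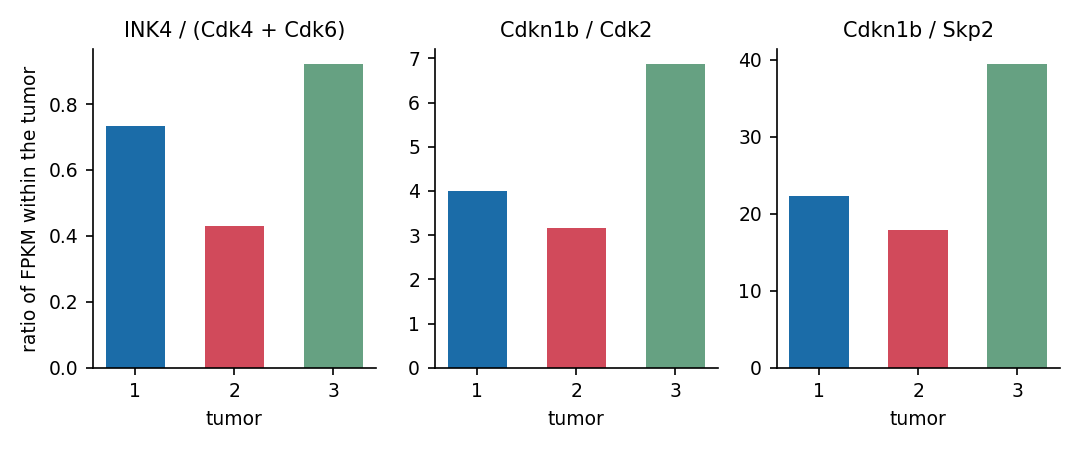
Ratios of FPKM within each tumor, with bars that start at 0, for summed INK4 over Cdk4 plus Cdk6, for Cdkn1b over Cdk2 and for Cdkn1b over Skp2. Tumor 3 is the highest in all 3 panels (0.920, 6.86 and 39.4) and tumor 2 the lowest (0.431, 3.16 and 17.9).

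The genes of p27Kip1 turnover were all above 0.2 FPKM in every tumor, 7 of 7, and 2 of the 7 varied by at least 2-fold, beside 36.7% of all genes and 43.4% of the 14722 genes. Skp1a and Rbx1, core subunits of the ligase that contains Skp2, had means of 50.4 ± 13.2 and 27.7 ± 0.768 FPKM (SD, n = 3). Cks1b, the cofactor by which Skp2 recognizes p27Kip1, varied most, with 26.0, 15.8 and 9.49 FPKM in tumors 1, 2 and 3. Of the FOXO factors, which activate Cdkn1b transcription when PI3K signaling is low, Foxo1 had 15.1, 3.70 and 12.1 FPKM, a 4.08-fold range. It had the order of Cdkn1b, which 4141 of the 14722 genes with a mean above 0.2 FPKM had. Foxo4, with 7.61, 13.8 and 12.8 FPKM, and Foxo3, with 4.63, 6.84 and 5.56 FPKM and named after its values were seen, were highest in tumor 2.

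CDK2 and its cyclins, the targets of p27Kip1, were highest in tumor 1 for 4 of 5 genes, where 49.8% of the 14722 genes were. Cdk2 had 8.18, 6.01 and 3.96 FPKM, Ccne1 had 11.003, 6.65 and 5.66 FPKM and Ccna2 had 18.8, 8.65 and 6.69 FPKM in tumors 1, 2 and 3. Tumor 3 was thus the lowest for these 3, while Ccne2, with 6.03, 1.45 and 2.84 FPKM, was lowest in tumor 2. Ccna1, a cyclin of the germline, had no read in any tumor.

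The RB family lies downstream of all these kinases. Rb1 had 7.91, 2.77 and 5.31 FPKM, Rbl1 had 13.1, 7.23 and 6.84 FPKM and Rbl2 had 12.0, 5.92 and 10.7 FPKM in tumors 1, 2 and 3. Rb1 and Rbl2 were thus lowest in tumor 2, in the order that Cdkn1b and Cdkn2d shared with 4141 of the 14722 genes, and Rbl1, itself an E2F target, was lowest in tumor 3. Of the 10 E2F and DP genes all were above 0.2 FPKM in every tumor, beside 36.7% of all genes. Of the 10, 8 were highest in tumor 1 and 4 varied by at least 2-fold, beside 49.8% and 43.4% of the 14722 genes. E2f4, the main repressor E2F, and Tfdp1, a dimer partner, were the most abundant with 30.2 ± 4.30 and 23.2 ± 7.41 FPKM (SD, n = 3), and E2f8 varied most, with 3.96, 2.74 and 1.18 FPKM.

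The genes through which Arf acts were expressed in each tumor, including tumor 2. Npm1, the nucleolar partner of Arf, had 290.1, 176.3 and 336.7 FPKM in tumors 1, 2 and 3. Mdm4 had 20.9, 14.3 and 15.2 FPKM. Trp53 and Mdm2 had means of 26.0 ± 3.60 and 9.25 ± 2.41 FPKM (SD, n = 3). All 4 genes of this list had their lowest value in tumor 2 and none varied by 2-fold, beside 36.2% and 43.4% of the 14722 genes, and the 80.3-fold and 101-fold differences of Cdkn2a had no counterpart among them.

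Of 10 genes known to repress the Ink4 and Arf locus, most of them Polycomb genes, 9 were above 0.2 FPKM in every tumor. Of these, 1 varied by at least 2-fold. The shares beside them were 36.7% of all genes and 43.4% of the 14722 genes. The exception to detection was Tbx2. The list had no common direction, with 4 of the 10 lowest and 5 of the 10 highest in tumor 2, beside 5330 and 5190 of the 14722 genes with a mean above 0.2 FPKM. Suz12 had 22.8, 11.4 and 13.4 FPKM and Eed had 14.2, 7.77 and 9.61 FPKM in tumors 1, 2 and 3, so that these subunits of the H3K27 methyltransferase were lowest in tumor 2. Ezh2, its catalytic subunit and named after its values were seen, was lowest in tumor 3, with 9.09, 6.50 and 4.68 FPKM. Id1, an inhibitor of the Ets activators, was the most variable gene of the list among those above 0.2 FPKM in every tumor. It had 1.27 FPKM in tumor 2 against 0.477 and 0.581 FPKM in tumors 1 and 3. Among 4 activators, Ets1 had 56.4 ± 10.9 FPKM and Myc, an inducer of Arf, had 41.2 ± 12.7 FPKM (SD, n = 3). Dmtf1, which binds the Arf promoter, varied most of the 4, with 6.77, 2.98 and 3.98 FPKM. No gene of these lists differed between tumors as Cdkn2a did.

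Genes of proliferating cells gave a different order of tumors. All 20 were above 0.2 FPKM in every tumor, beside 36.7% of all genes. Of these, 19 were highest in tumor 1, against 49.8% of the 14722 genes, and 17 were lowest in tumor 3, where 5879 were. Pcna and Mcm4 had the highest means, 69.2 ± 16.7 and 35.3 ± 6.75 FPKM (SD, n = 3), and Birc5 varied most, with 21.5, 5.67 and 4.005 FPKM in tumors 1, 2 and 3. The order of tumors 1, 2 and 3 from high to low, seen in 16 of the 20, was that of Cdkn2c and of none of the other 4 inhibitors. Over the 14722 genes with a mean above 0.2 FPKM, 3187 had this order. Of 10 housekeeping genes 3 varied by at least 2-fold, beside 43.4% of the 14722 genes, and the most abundant, Eef1a1 and Rplp0, had 2968 ± 808.6 and 1883 ± 802.6 FPKM.

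T-cell markers, both CD8 chains among them, were expressed in each tumor. All 12 T-cell genes were above 0.2 FPKM in every tumor, beside 36.7% of all genes. All 6 B-cell genes passed this threshold too, so it does not test the label of a T-cell tumor. Their summed levels were 1645, 1495 and 1811 FPKM in tumors 1, 2 and 3. Cd8b1, the most abundant, had 434.7, 166.0 and 443.4 FPKM and Cd8a had 258.5, 121.8 and 218.1 FPKM. Both CD8 chains were thus lowest in tumor 2 like 4 of the inhibitors. Of the 12 genes, 5 were lowest and 6 highest in tumor 2, beside 5330 and 5190 of the 14722 genes. The summed list varied little, while 4 of the 12 genes varied by at least 2-fold, beside 43.4% of the 14722 genes. Cd4 had 28.4, 4.28 and 8.22 FPKM, highest in tumor 1. The paper describes these lymphomas as mostly CD8-positive and CD4-negative, with a CD4+CD8+ case. Which cells held the Cd4 transcript was not tested. Scaling each tumor to the geometric mean of Cd3d, Cd3e and Cd3g was an alternative chosen after the values were seen. Under it 4 of the 5 inhibitors were again lowest in tumor 2 and all 5 varied by at least 2-fold. The range of Cdkn2a was then 105-fold. No share of all genes is given for this scaling, which multiplies all genes of a tumor alike.

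Markers of B cells moved with Cdkn2a and Cdkn2b. All 6 were highest in tumor 3 and lowest in tumor 2, the order of these inhibitors and of 1189 of the 14722 genes, with summed levels of 58.0, 14.1 and 107 FPKM in tumors 1, 2 and 3, and none was without a read. Cd79a, the most abundant, had 23.1, 7.31 and 49.0 FPKM, Cd79b had 20.1, 3.72 and 35.5 FPKM, and Ms4a1 varied most, with 3.98, 0.400 and 5.31 FPKM. Their part in the values of Cdkn2a, Cdkn2b, Cdkn1b and Cdkn2d was not tested. Ms4a1, the most variable marker, ranged over 13.3-fold between tumors.

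Other tissue was most visible in tumors 1 and 2. All 8 genes of the pancreatic acinar list were highest in tumor 2 and lowest in tumor 3, where 5190 and 5879 of the 14722 genes were, with sums of 87.0, 440.3 and 0.657 FPKM in tumors 1, 2 and 3. Ctrb1 led with 33.9, 197.7 and 0.0494 FPKM, Prss2 had 14.9, 52.1 and 0.177 FPKM, and in tumor 3 Ctrb1 and Cpa1 had no read. Stromal and endothelial genes were lowest in tumor 3 in 8 of 8 and highest in tumor 2 in 5 of 8, beside 5879 and 5190 of the 14722 genes, with sums of 23.7, 54.8 and 5.43 FPKM, led by Pecam1 with 12.2, 10.9 and 4.86 FPKM and by Col1a1 with 1.63, 15.5 and 0.315 FPKM. These lists thus ran high in the tumor in which 4 of the inhibitors were low, and their part in those values was not tested.

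Myeloid and erythroid markers were highest in tumor 1. The myeloid list was highest there in 7 of 8 genes, with sums of 305.6, 117.4 and 43.8 FPKM in tumors 1, 2 and 3. Lyz2, the most abundant, had 215.2, 33.1 and 20.3 FPKM, Cd68, the exception, had 19.6, 51.2 and 9.27 FPKM, and Cd14 had 2.77, 0.805 and 0.214 FPKM. The erythroid list was highest in tumor 1 in 5 of 5 genes, with sums of 202.4, 38.4 and 4.74 FPKM, led by Hba-a1 with 92.3, 19.6 and 1.90 FPKM and its near-identical copy Hba-a2 with 40.7, 8.22 and 0.0722 FPKM. None of the 5 was without a read. Only reads of high mapping quality were used, so reads that fit both Hba-a1 and Hba-a2 may be missing. Cdkn2c, Cdkn1b and Cdkn2d were highest in tumor 1 as well, a share near the 49.8% of all 14722 genes, and the part of these cells in their values was not tested.

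**Figure D5:**
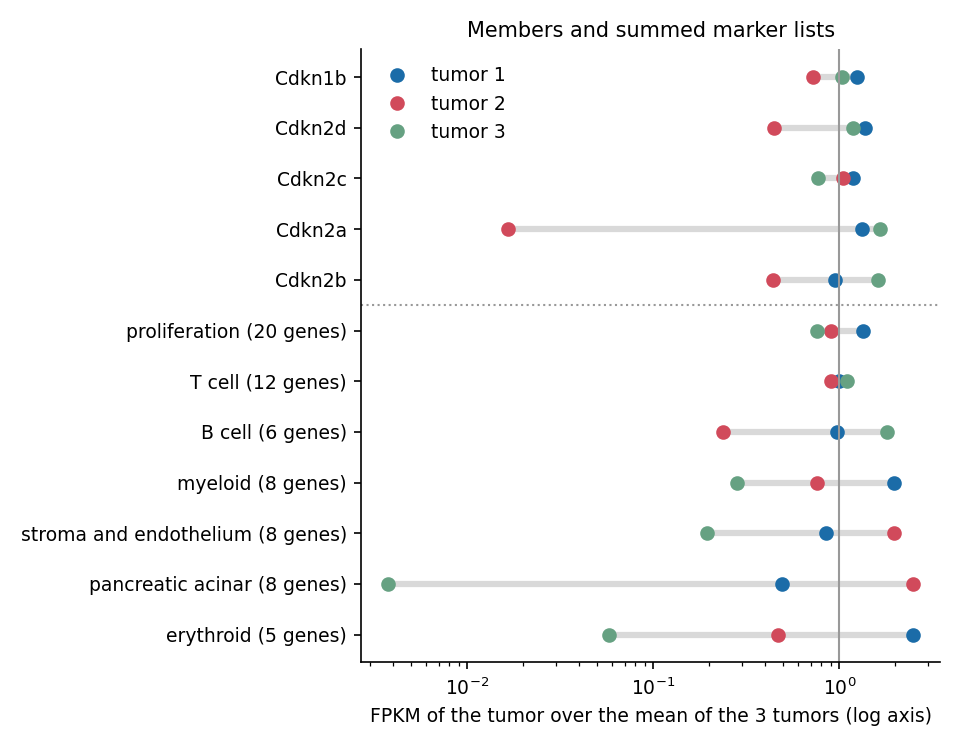
FPKM of each tumor over the mean of the 3 tumors on a log axis, for the 5 inhibitors (above the dotted line) and for the summed FPKM of marker lists (below it, with the number of genes). Tumor 2 is lowest for 4 inhibitors and for the B-cell sum of 14.1 FPKM, and highest for the acinar sum of 440.3 FPKM.

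Genes with the most similar profile were sought by the distance between log2(FPKM) over the 3 tumors, after each gene's mean was subtracted, among genes with a mean of at least 1 FPKM. With 3 tumors such likeness is common, and it says nothing of shared function or control. Closest to Cdkn1b were Ablim1, Gtf2h2 and Tnpo3, all within a distance of 0.00886, and 214 of 11190 genes lay within 0.1. Closest to Cdkn2c were Gm20507, Slc20a1 and Rnf214, with 152 genes within 0.1. Cdkn2d and Cdkn2b had fewer genes with a like profile, 12 and 3 within 0.1. Closest to Cdkn2d were Siglecg, Ercc5 and 4930562F07Rik, and closest to Cdkn2b were Eci1, Cdkn1a and Fam212b. These names are uncertain, since a pseudocount of 0.1 kept 1 of the 3 for Cdkn1b, Cdkn2b and Cdkn2c and 2 of the 3 for Cdkn2d, and the profile of Cdkn2b rests on 38, 11 and 44 reads. No genes were sought for Cdkn2a because it was not above 0.2 FPKM in every tumor. Among the inhibitors themselves, Cdkn2b and Cdkn2d were 0.693 apart and Cdkn1b and Cdkn2c 0.681.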

How the data were processed

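The authors aligned trimmed paired-end reads to mm10 with STAR (version not given in the sources used here), used the RNA-seq pipeline of SeqMonk for reads of high mapping quality, and deposited linear FPKM per gene and tumor. The filter on mapping quality can remove reads shared by near-identical genes. Members and lists were chosen with earlier results of these data known. From the depth recovered as described and the exon lengths of GENCODE M21, 92.5%, 92.6% and 92.6% of the values of tumors 1, 2 and 3 gave whole reads within 0.02 read, or no read. No count model was used, as the values are normalized. With 1 group of 3 tumors no test between groups was made. Repeated symbols were represented by their most abundant gene, which left 34199 genes. Of the 14722 genes with a mean above 0.2 FPKM, 242 had values in inverse proportion to depth, as genes without a read have, and depth alone sets their order. Intervals of ratios are exact conditional intervals of the reads of 2 libraries.

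Named genes are the 5 inhibitors, every gene of the lists of other KIP genes, INK4 targets, D-type cyclins, CDK2 and its cyclins, RB family and Arf partners, the 2 most abundant and the most variable gene of each other list, and the 3 genes most like each inhibitor. A most variable gene had to be above 0.2 FPKM in every tumor, which no acinar gene was. The erythroid list leaves out 1 planned gene, which is not used here. Others are named after their values were seen. Bisulfite sequencing was not used here. The steps were tested on simulated data. Alternatives were rescaling of FPKM to sum to 1000000, median-of-ratios factors, other thresholds, folds and pseudocounts, repeated symbols summed and each tumor left out. Software was Python 3.11.15 with matplotlib 3.10.9, SciPy 1.17.1, NumPy 2.4.6 and pandas 2.3.3.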

Additional observations from a re-analysis of the deposited data

How the results depend on the processing

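No paired analysis was possible because only 1 group was measured by RNA-seq. Of 108 alternative values of 22 results, 79 were labeled as kept and 29 as moved. A mean or within-tumor ratio was kept if it shifted by less than the SD of the 3 tumors. Leaving out 1 of 3 tumors cannot shift a mean that far, so those values were kept by construction. The mean of Cdkn2a, for instance, counted as kept at 3.65 to 8.15 FPKM. Counts were kept within a factor of 1.5. The number kept is therefore not a measure of robustness. Rescaling FPKM to sum to 1000000 multiplies every value, and the means became 128.9 for Cdkn1b, 26.4 for Cdkn2a, 4.50 for Cdkn2b, 36.9 for Cdkn2c, 76.0 for Cdkn2d and 143.8 for the INK4 sum. The range between tumors became 1.89 for Cdkn1b and 1.84 for Cdkn2c under it, and 1.53 and 1.32 with median-of-ratios factors. Scaled to Cd3d, Cd3e and Cd3g, chosen after seeing the data, it was 2.26 for Cdkn1b, 2.03 for Cdkn2c and 4.02 for Cdkn2d, and the count of genes at 2-fold or more was 5. That count, given without a share of all genes in either case, was also 5 at a fold of 1.5. With 1 tumor left out it was 0 to 3, and the range was 1.20 to 1.72 for Cdkn1b, 1.26 to 101 for Cdkn2a, 1.71 to 3.65 for Cdkn2b, 1.14 to 1.55 for Cdkn2c and 1.15 to 3.06 for Cdkn2d, the lowest of these without tumor 2 except for Cdkn2c. Of the 5 genes, 3 to 5 kept their place in the order with 1 tumor left out, 1 within tumor 2 and 3 within tumor 3. A pseudocount of 0.1 kept 1 of the 3 most similar genes for Cdkn1b, Cdkn2b and Cdkn2c. Depth limits Cdkn2a in tumor 2 and Cdkn2b in every tumor.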
